A study of Mus musculus with 6 samples.

Results

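The genes described here are 10 components of the tight junction, the seal between neighbouring epithelial cells: the claudins Cldn2, Cldn3, Cldn4, Cldn7, Cldn15 and Cldn23, the membrane proteins Ocln (occludin) and F11r (junctional adhesion molecule A), and the scaffold proteins Tjp1 (ZO-1) and Tjp3 (ZO-3). They were chosen by symbol, and each matched 1 of the 27998 genes of the deposited count tables. The data are single-cell 3' libraries of small-intestinal epithelium from C57BL/6J mice aged 8 weeks, with 3 wild-type libraries and 3 labelled Itgb7 KO (genotype Itgb7-/-), numbered 1 to 3 in each group. Per its title, the study asked whether T cells carrying the αEβ7 integrin direct the fate of intestinal stem cells, and Itgb7 encodes the β7 subunit. Neither the extent of the deletion nor the number of animals in a library is given in the labels. Spread between libraries may thus be technical, and p-values measure that spread alone.

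Claudins span the membrane and bind claudins of the neighbouring cell. Cldn2 forms paracellular channels for sodium and water and Cldn15 channels for sodium, and both are known for supplying the sodium that nutrient uptake in the small intestine needs, whereas Cldn3, Cldn4 and Cldn7 are usually described as sealing claudins. The cytoplasmic ZO proteins tie claudins, occludin and F11r to the actin cytoskeleton. Intestinal epithelium renews itself from stem cells at the crypt base through dividing transit-amplifying cells to enterocytes that move up the villus, and the goblet, Paneth, enteroendocrine and tuft lineages arise from the same stem cells.

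Cells were sorted into classes by clustering with every listed junction gene left out, and a class is named "-like" after its marker genes. The 6 libraries held 2773 to 5738 barcodes and 28475253 to 76133693 UMIs (a UMI marks 1 captured RNA molecule). Both libraries numbered 1 stood apart, with medians of 22384 and 19529 UMIs per barcode and smallest totals of 13621 and 7754, against medians of 6079.5 to 12103 and smallest totals of 1417 to 2946 in the other 4. Pairs of libraries shared 12 to 42 cell barcodes. Of 25073 cells kept, 22653 fell into 8 epithelial classes, and 3 clusters stayed unnamed. Itgb7 itself had 3, 8 and 2 UMIs in the wild-type and 18, 33 and 12 in the other libraries. They were thus higher in the libraries labelled Itgb7 KO. A 3' tag can lie outside a deleted part, so these UMIs cannot check the label in either direction. Every direction between genotypes below rests on the label. Summed marker levels of T cells, B or plasma cells, myeloid, stromal and endothelial cells lay between 1.33 and 14.0 counts per 1000000 UMIs (CPM) in each library. Those of T cells were 1.91 to 3.87 CPM in wild-type and 1.33 to 1.40 CPM in labelled Itgb7 KO libraries, without overlap. Of 8 stromal genes 4 had UMIs, and Col1a2, Col3a1, Dcn and Pdgfra had none. Of 7 endothelial genes 4 had UMIs, and Cdh5, Kdr and Emcn had none.

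The promoters of 3 genes are shown as examples of claudins with different patterns along the crypt-villus axis and across lineages: Cldn2 was highest in stem cells, Cldn3 in mature enterocytes and Cldn4 in secretory cells. Cldn4 (ENSMUSG00000047501, chr5:134945119-134946934, minus strand) and Cldn3 (ENSMUSG00000070473, chr5:134986214-134987472, plus strand) are neighbours 39.3 kb apart on opposite strands in mm10, with GENCODE M21 positions, while Cldn2 (ENSMUSG00000047230, chrX:139800828-139811386, plus strand) lies on another chromosome. RefSeq (GRCm38.p6) gave a promoter for 9 of the 10 genes, all but Cldn23, 250 bases before to 50 after a start site. These lie at chrX:139800558-139800857, plus strand for Cldn2, chr5:134985964-134986263, plus strand for Cldn3 and chr5:134946885-134947184, minus strand for Cldn4. Each is written 5′ to 3′ on its gene's strand, and capitals mark the only match to the motifs searched.
Cldn2: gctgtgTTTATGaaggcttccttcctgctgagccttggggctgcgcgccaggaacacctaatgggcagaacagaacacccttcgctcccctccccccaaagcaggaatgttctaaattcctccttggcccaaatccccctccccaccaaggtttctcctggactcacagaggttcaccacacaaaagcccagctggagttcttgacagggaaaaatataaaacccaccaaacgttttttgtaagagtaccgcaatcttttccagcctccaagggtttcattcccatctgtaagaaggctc
Cldn3: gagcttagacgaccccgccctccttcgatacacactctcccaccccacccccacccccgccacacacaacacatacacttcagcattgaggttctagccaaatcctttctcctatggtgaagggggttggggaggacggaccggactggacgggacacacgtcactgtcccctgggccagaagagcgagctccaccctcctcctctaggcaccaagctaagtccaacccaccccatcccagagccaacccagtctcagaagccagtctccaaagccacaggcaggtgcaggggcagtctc
Cldn4: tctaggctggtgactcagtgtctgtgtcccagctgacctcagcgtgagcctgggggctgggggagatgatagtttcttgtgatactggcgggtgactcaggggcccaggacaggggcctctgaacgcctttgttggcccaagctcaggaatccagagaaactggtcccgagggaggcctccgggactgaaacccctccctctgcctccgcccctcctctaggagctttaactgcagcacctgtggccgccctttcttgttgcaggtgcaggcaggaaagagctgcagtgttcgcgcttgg
The motifs were searched on both strands as TTTATG for the CDX family, GATAAG for GATA factors, CTTTGA for the TCF/LEF family and GTTAAT for HNF1 factors, chosen after the Cldn2 promoter had been seen. Over the 12 windows of the 9 genes the only match was the CDX-type one in Cldn2, 244 bases before its start site. This motif occurs in 11.9% of 32851 mouse promoters of the same length, against 7.44% for the GATA type, 16.0% for the TCF/LEF type and 7.10% for the HNF1 type. A match in this window is a description of the letters and not of binding.

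The channel-forming claudins ran in opposite directions along the axis. Cldn2 was highest in stem-like cells and lower at each step towards the villus, with means over the 6 libraries of 121, 96.1, 61.8 and 41.8 CPM from stem-like cells through transit-amplifying-like cells and lower-villus enterocytes to mature enterocytes. In stem-like cells it stood at 107, 135 and 118 CPM in wild-type libraries 1 to 3 and 119.8, 132 and 114 CPM in those labelled Itgb7 KO. In mature enterocyte-like cells it stood at 35.3, 43.1 and 44.4 CPM in wild-type libraries 1 to 3 and 53.7, 37.0 and 37.0 CPM in those labelled Itgb7 KO. Every stem value exceeded every mature value, and the mean difference of mature over stem was −1.52 ± 0.23 on the log2(CPM + 1) scale (SD over 6 libraries), a 2.87-fold lower level. Wild-type and labelled Itgb7 KO libraries were interleaved in both classes. Over the alternatives run the difference ranged from −1.66 to −1.11, the latter when cells were clustered with junction genes left in. The fall did not hold in all enterocytes. In a mature cluster rich in the ileal gene Fabp6, 253 of 3042 cells of the class, Cldn2 averaged 140 CPM. The part of region in the axis difference was not tested. Cldn15 (ENSMUSG00000001739, chr5:136966616-136975858, plus strand) was higher in enterocytes, at 216 ± 33.9 CPM (SD) in stem-like, 338 ± 52.3 in lower-villus and 332 ± 61.2 in mature enterocyte-like cells, with a difference of 0.61 ± 0.14 (SD) that had the same sign in 6 of 6 libraries. Its stem range of 158 to 254 CPM overlapped the mature range of 239 to 402 CPM, and the overlap rested on library Itgb7 KO 3, the lowest in both classes.

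Of the sealing claudins, Cldn3 had a wider axis difference than Cldn7. In stem-like cells Cldn3 stood at 481, 536 and 450.1 CPM in wild-type libraries 1 to 3 and 477, 523 and 414 CPM in those labelled Itgb7 KO. In mature enterocyte-like cells it stood at 1154, 1476 and 1104 CPM in wild-type libraries 1 to 3 and 1078, 1449 and 1034 CPM in those labelled Itgb7 KO. No stem value reached a mature one, and the difference was 1.33 ± 0.12 (SD, log2), or 2.51-fold, with the widest of the 3 steps between transit-amplifying-like and lower-villus cells. Cldn7 (ENSMUSG00000018569, chr11:69964779-69967885, plus strand) differed less, with 1234 ± 115 CPM in stem-like and 1516 ± 133 CPM in mature enterocyte-like cells (SD), a difference of 0.30 ± 0.04 (SD) shared by 6 of 6 libraries with overlapping ranges. It was highest in lower-villus enterocyte-like cells, at 1633 CPM, above its mature level in 6 of 6 libraries, but the mean log2 difference of −0.11 between these 2 classes was close to the median of −0.09 over all genes. Cldn23, a less studied claudin (ENSMUSG00000055976, chr8:35824712-35826559, minus strand), had the widest difference of the 10 genes, at 2.73 ± 0.37 (SD, log2) or 6.62-fold. Its stem-like values were 7.79, 14.9 and 17.3 CPM in wild-type libraries 1 to 3 and 9.53, 14.6 and 21.8 CPM in those labelled Itgb7 KO. Its mature enterocyte-like values were 65.5, 125 and 86.0 CPM in wild-type libraries 1 to 3 and 51.1, 138 and 152 CPM in those labelled Itgb7 KO. The classes did not overlap although the libraries differed widely, the libraries numbered 1 being lowest in both.

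Among the partners of the claudins, F11r, an immunoglobulin-type adhesion protein (ENSMUSG00000038235, chr1:171437535-171464603, plus strand), followed the enterocyte pattern, while the signs of the Ocln difference across libraries depended on the scaling. F11r stood at 77.0, 80.1 and 67.2 CPM in wild-type libraries 1 to 3 and 64.4, 84.2 and 66.2 CPM in those labelled Itgb7 KO in stem-like cells. It stood at 170.0, 243 and 208 CPM in wild-type libraries 1 to 3 and 173, 242 and 211 CPM in those labelled Itgb7 KO in mature enterocyte-like cells, without overlap, a difference of 1.49 ± 0.20 (SD, log2) or 2.80-fold. Ocln (ENSMUSG00000021638, chr13:100496507-100552718, minus strand) had nearly the same mean at both ends, 75.5 ± 29.1 and 75.1 ± 25.7 CPM (SD). Its axis difference of 0.01 ± 0.19 (SD) was positive in 3 libraries, all wild-type, and negative in the 3 labelled Itgb7 KO. With TMM scaling, which corrects each library for its composition, it was 0.24 ± 0.18 (SD) and positive in 5 of 6 libraries. The scaffold gene Tjp1 (ENSMUSG00000030516, chr7:65296165-65527781, minus strand) was higher in mature enterocyte-like cells in 6 of 6 libraries, at 40.2 ± 13.8 against 17.2 ± 6.16 CPM (SD), a difference of 1.17 ± 0.27 (SD), although the ranges of 10.1 to 27.9 and 20.2 to 58.2 CPM overlapped. Tjp3 (ENSMUSG00000034917, chr10:81273207-81291581, minus strand) averaged 71.9 CPM in stem-like and 77.1 CPM in mature enterocyte-like cells, with a difference of 0.10 ± 0.09 (SD) that was positive in 5 of 6 libraries.

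**Figure D1:**
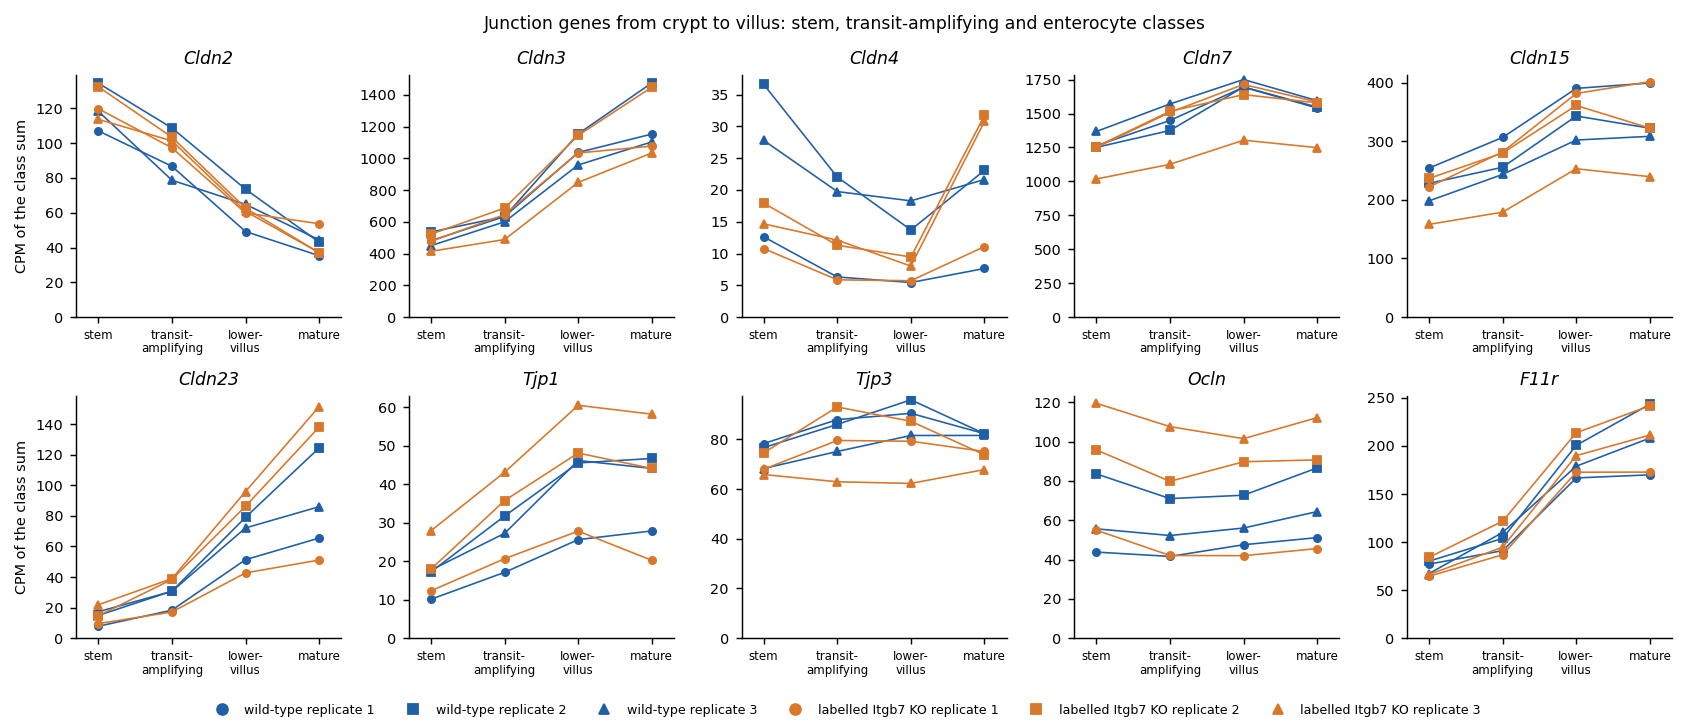
CPM of the 10 genes (y axis, from 0) in stem-, transit-amplifying-, lower-villus enterocyte- and mature enterocyte-like cells (x axis). Each line is 1 library, blue for wild-type and orange for libraries labelled Itgb7 KO. Cldn2 runs down in all 6 libraries, Cldn3, Cldn23 and F11r run up, and the 2 colours are interleaved in most panels.

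Read together, 3 of the 10 genes were higher in mature enterocyte-like than in stem-like cells without overlap of the 6 values, beside 19.3% of the 11056 genes tested, and 1 was lower, beside 30.8%. In either direction 50% of all genes lacked overlap between these classes, against 4 of these 10. The median difference of the 10 genes was 0.45 on the log2 scale and that of all genes −0.21. With TMM scaling in place of CPM, chosen after seeing the data, the median of all genes shifted up by 0.21, and 5 genes were higher without overlap. No gene with the same sign in 6 libraries changed direction, while Tjp3 became higher in 6 of 6 and Ocln in 5 of 6. Without both libraries numbered 1 the count was also 5 and without Itgb7 KO 3 it was 6, in each case beside 1 lower. The shares of all genes under TMM scaling or without these libraries are not given. The counts of 5 and 6 thus cannot be set beside 19.3%. Because cells were put into these classes by their RNA, all differences between classes are descriptions and carry no p-value.

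Cldn4 was highest in 3 of the secretory lineages. Its class means were 296 CPM in enteroendocrine-like, 229 in goblet-like and 165 in Paneth-like cells, followed after a 7.85-fold gap by 21.0 in mature enterocyte-like and 20.1 in stem-like cells. The 3 secretory classes did not overlap with the 5 others. In goblet-like cells, which make mucus, it stood at 68.7, 399 and 266 CPM in wild-type libraries 1 to 3 and 135, 235 and 269 CPM in those labelled Itgb7 KO, so both libraries numbered 1 were the lowest. The same 2 libraries were lowest among Paneth-like cells and again among enteroendocrine-like cells, with 64.3 and 115 CPM in the latter against 318 to 469.5 in the others. Beside these values, the summed enteroendocrine markers made 11281 CPM in the enteroendocrine-like cells of wild-type library 1 and 49068 to 80499 CPM in the other 5, and the part of this difference in the Cldn4 level was not tested. Within the goblet-like class, Cldn4 rested on all 4 clusters, with means of 100.3, 184, 231 and 419 CPM.

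Cldn15 was low in Paneth-like, tuft-like and enteroendocrine-like cells, the last 2 being the chemosensory and hormone-secreting lineages. In goblet-like cells Cldn15 was close to its enterocyte level, at 312 ± 28.3 CPM (SD), but it averaged 125 CPM in Paneth-like, 96.3 in tuft-like and 91.0 in enteroendocrine-like cells. Its enteroendocrine-like values were 237, 28.6 and 46.8 CPM in wild-type libraries 1 to 3 and 156, 53.4 and 24.9 CPM in those labelled Itgb7 KO, so the libraries numbered 1 were the highest there, and only wild-type 1 lay within the stem-like range. Summed goblet markers in these cells were also highest in the libraries numbered 1, at 22201 and 15268 CPM against 7128 to 10952 in the others, and their part in the Cldn15 level was not tested. An unnamed cluster of 333 cells with Neurog3, which specifies the enteroendocrine lineage, among its leading genes had 325 ± 36.7 CPM of Cldn15 and 18.4 ± 13.5 CPM of Cldn4 (SD). Its 6 library values, 289 to 381 CPM of Cldn15 and 6.30 to 44.2 CPM of Cldn4, did not overlap those of the enteroendocrine-like cells, whose Cldn15 was 24.9 to 237 and whose Cldn4 was 64.3 to 469.5 CPM. This cluster and the comparison were picked after its values were seen. Neither the other members nor the share of all genes without overlap is given for this pair, so the separation cannot be weighed.

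Cldn7, Tjp1, Tjp3, Ocln and F11r had their lowest class means in Paneth-like cells, the antimicrobial cells of the crypt base. How many of all genes had their lowest mean there is not given, so this is not a trait of these genes. Defensin genes were among the leading genes of the class. There 2730 genes had counts high enough to test, against 9996 in mature enterocyte-like cells. The part of this RNA make-up in the low levels was not tested. Cldn7 averaged 543 CPM there and 1086 in the next class, without overlap and with a 2.00-fold ratio of means. Tjp3 averaged 17.1, Ocln 28.6, F11r 63.1 and Tjp1 7.08 CPM in Paneth-like cells. The smallest library sums behind these means were 2 UMIs for Tjp3 and Tjp1, 6 for Ocln and 13 for F11r. Median UMIs per Paneth-like cell were 88164 and 63471 in the libraries numbered 1 and 5895 to 12692 in the others. The Paneth-like class held 21 to 105 cells per library, and in the libraries numbered 1 its summed goblet markers made 24451 and 26176 CPM against 101891 to 140473 in the others, beside 137505 to 187967 in goblet-like cells. In those 2 libraries all 10 genes were lower in Paneth-like cells than in the other 4, with Cldn4 at 43.7 and 66.9 against 187 to 248 CPM. The share of all genes that were lower in this way is not given, so the count is not a result about these 10. The Paneth-like values of the other 4 libraries, Cldn4 and Cldn7 included, thus come from cells with goblet markers near the goblet-like level, whose part in them was not tested. Cldn7 in the other 4 libraries, at 513 to 764 CPM, was below its lowest enteroendocrine-like value of 925 CPM. Cldn2 was low in every secretory class, with 37.1 CPM in enteroendocrine-like, 34.8 in Paneth-like, 24.0 in tuft-like and 23.5 in goblet-like cells, 4 neighbours in the order whose ranges overlapped. Cldn3 in goblet-like cells, at 1045 CPM, could not be told from its lower-villus level of 1030.0 CPM by the spread between libraries.

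**Figure D2:**
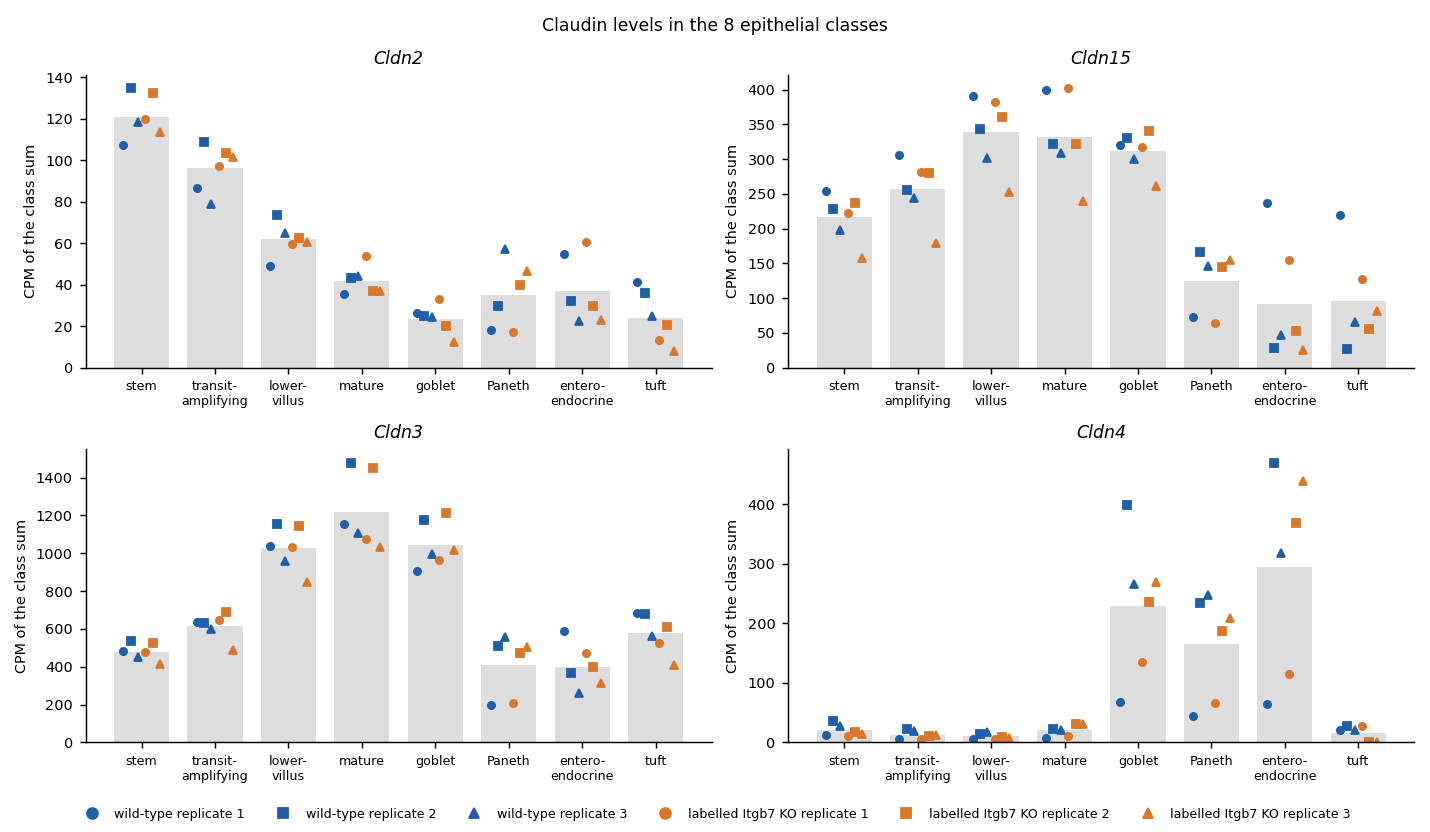
CPM (y axis, from 0) of Cldn2, Cldn15, Cldn3 and Cldn4 in the 8 epithelial classes (x axis). Points are the 6 libraries and grey bars their means. Cldn4 is at 5.44 to 36.6 CPM in the 4 axis classes and at 43.7 to 469.5 CPM in goblet-, Paneth- and enteroendocrine-like cells, and Cldn15 is low in the last and in tuft-like cells except in the libraries numbered 1.

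Enterocyte clusters that differed in Fabp6, the bile acid binding protein of the ileum, also differed in junction genes. Within the mature enterocyte-like class, cluster 2 had the most and cluster 10 the least Fabp6, with 17097 and 43.7 CPM. Cldn2, low in mature enterocytes as a class, stood at 138, 148 and 146 CPM in wild-type and 147, 134 and 129 CPM in labelled Itgb7 KO libraries in the Fabp6-rich cluster, within or above its stem-like range of 107 to 135 CPM. In cluster 10 it stood at 22.9, 43.1 and 43.7 and 55.5, 42.8 and 33.6 CPM. The clusters did not overlap, and the difference was 1.82 ± 0.39 (SD, log2) or 3.54-fold. Cldn7 (1933 ± 197 against 1424 ± 141 CPM, SD), Tjp3 (117 ± 17.0 against 74.3 ± 7.13 CPM) and F11r (271 ± 43.4 against 173 ± 26.2 CPM) were also higher in the Fabp6-rich cluster without overlap, and Cldn3 was higher in 6 of 6 libraries. Cldn15 barely differed (335 ± 73.4 against 313 ± 47.5 CPM, higher in 4 of 6). These are 5 of 10 genes higher in all 6 libraries and 0 lower, beside 8.61% of all tested genes higher and 14.4% lower, with a median of −0.14 for all genes. Cluster 2 held 253 cells.

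The same contrast in lower-villus enterocyte-like cells, cluster 5 over cluster 6, gave smaller mean differences for Cldn2 and F11r and a larger one for Cldn23. Cldn2 averaged 83.0 against 61.6 CPM (0.42 ± 0.15, SD, log2) and F11r 198 against 141 CPM (0.50 ± 0.11), both without overlap. Cldn23 had 0.58 ± 0.16 here and 0.20 ± 0.18 in the mature class. In all, 6 of 10 genes (Cldn2, Cldn3, Cldn7, Cldn23, Tjp3, F11r) were higher in cluster 5 in all 6 libraries, beside 10.3% of genes higher and 10.1% lower. Cluster 6 rested on 2 lower-villus markers among its first 10 genes. These pairs of clusters differ in many genes besides Fabp6, and region and maturity within a class cannot be told apart here.

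**Figure D3:**
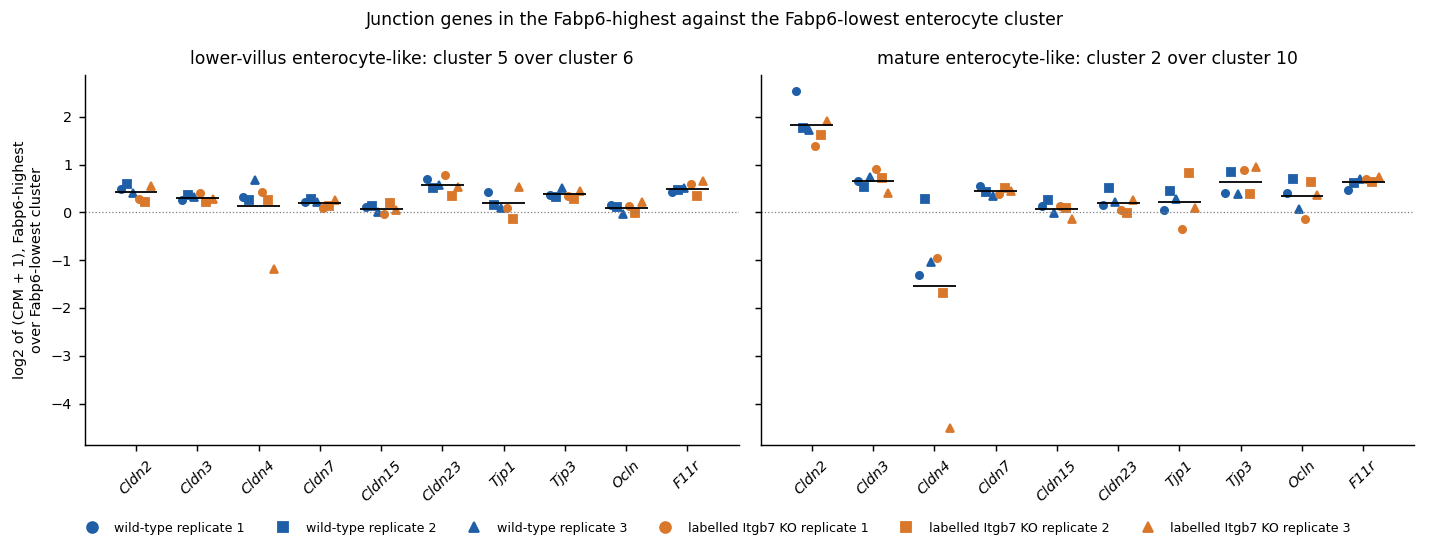
Log2 ratio of CPM + 1 (y axis) between the cluster with most and the cluster with least Fabp6, for the 10 genes (x axis), in lower-villus (left) and mature (right) enterocyte-like cells. Points are libraries and black lines their means; Cldn2 has the highest mean on the right, at 1.82, and Cldn4 the widest spread.

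Enterocytes were also ranked by landmark genes of the villus tip over tip plus bottom and split into 3 equal bins in each library. Cldn2 averaged 75.2 CPM in the lower, 50.5 in the middle and 37.0 in the upper bin, lower in the upper than in the lower bin in 6 of 6 libraries (−1.002 ± 0.28, SD, log2). Cldn23 (69.6 to 99.8 CPM) and Cldn4 (9.89 to 19.9 CPM) were higher in the upper bin in 6 of 6 libraries, and Cldn7 was slightly lower (1659.9 to 1518 CPM). Beside these 2 higher and 2 lower genes, 15.3% of all genes were higher and 15.9% lower. Region moved with the bins: Fabp6, which is not a landmark of the score, stood at 2564 CPM in the lower and 122 CPM in the upper bin. Apoa4, an apolipoprotein of the proximal intestine, stood at 39.9 and 715 CPM. It is itself a tip landmark, so its rise was set by the score. With a score from tip landmarks alone, 5 genes were higher and 1 lower in the upper bin, and with cells of at least 8000 UMIs 2 were higher and 1 lower. The shares of all genes under these alternatives are not given, so their counts cannot be set beside those above. The tip genes Ada, Nt5e and Slc28a2 averaged at most 2.80 CPM in any bin. Height on the villus and region therefore cannot be told apart in these bins.

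Between genotypes, none of the 10 genes was called in any class tested. The test was edgeR's quasi-likelihood test on UMI counts summed per library and class, adjusted over all genes tested (Benjamini-Hochberg, threshold 0.05). It called 0 of the 10 genes in stem-like (0.00965% of all genes called), lower-villus (0.00927%), transit-amplifying-like (0%), mature enterocyte-like (0%), goblet-like (0.00907%), enteroendocrine-like (0%) and all epithelial cells (0.00743%), and 0 of 8 tested in Paneth-like cells (0%). The only gene called in these fits was Agpat4, an acyltransferase gene. The lowest adjusted p of the 10 genes was 0.908. At an unadjusted p under 0.05 there was 1 value, Cldn4 in stem-like cells, where 294 of all 10365 genes were under it. DESeq2 called 0 as well. In mature enterocyte-like cells the groups did not overlap for 1 of the 10 genes, Tjp3 (beside 9.21% of all genes), at 82.2, 82.2 and 81.6 against 75.1, 73.8 and 67.8 CPM (log2 −0.16 ± 0.13, SE, edgeR adjusted p = 0.938). In the 6 other classes tested and in all epithelial cells the groups overlapped for each of them, beside 7.45% of genes without overlap among stem-like, 9.29% among lower-villus, 7.75% among transit-amplifying-like, 0.696% among Paneth-like, 6.72% among goblet-like, 4.78% among enteroendocrine-like and 5.61% among all epithelial cells. In tuft-like cells, which were too few to test, the groups did not overlap for 1 of the 10 genes, Cldn2 (beside 8.79% of genes with at least 10 UMIs in these cells), at 41.1, 35.8 and 25.2 against 13.4, 20.4 and 8.15 CPM, values that rest on 1 to 14 UMIs per library.

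By size, the log2 differences between genotypes (labelled Itgb7 KO over wild-type) in all epithelial cells ran from −0.26 ± 0.33 for Cldn4 to 0.42 ± 0.31 for Ocln (SE). Cldn2 had 0.04 ± 0.13, Cldn3 −0.04 ± 0.14 and F11r 0.02 ± 0.14. These 3 lay within 1 SE of 0, which does not show that the groups were equal. Ocln and Cldn23 were positive in 7 of 7 classes tested and Tjp1 in 6 of 6, while Cldn7 and Cldn15 were negative in 7 of 7 and Tjp3 in 6 of 6, classes that share their libraries. Ocln had its widest difference in stem-like cells, at 43.8, 83.6 and 55.6 against 54.9, 95.8 and 119 CPM (log2 0.53 ± 0.28, SE, edgeR adjusted p = 0.966). Ocln was lowest in the deepest libraries, those numbered 1, and highest in Itgb7 KO 3, the shallowest. Without that library the stem-like difference was 0.27 ± 0.26 (SE), and in cells with at least 8000 UMIs it was 0.34 ± 0.26. Cldn23 and Tjp1 were also lowest in the libraries numbered 1 in all epithelial cells, with 73.4 and 45.2 CPM in Itgb7 KO 3 as their highest values. Cldn7, Cldn15 and Tjp3 were lowest there in Itgb7 KO 3, at 1141, 212 and 59.5 CPM. In Itgb7 KO 1 and 2 Cldn7 (1316 and 1469 CPM) lay within the wild-type range of 1238 to 1515 CPM. Cldn15 (287 and 302 CPM) lay within and above its range of 271 to 290 CPM. Tjp3 (65.5 and 81.0 CPM) lay below and above its range of 69.2 to 79.4 CPM. The part of depth in these levels was not tested further.

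**Figure D4:**
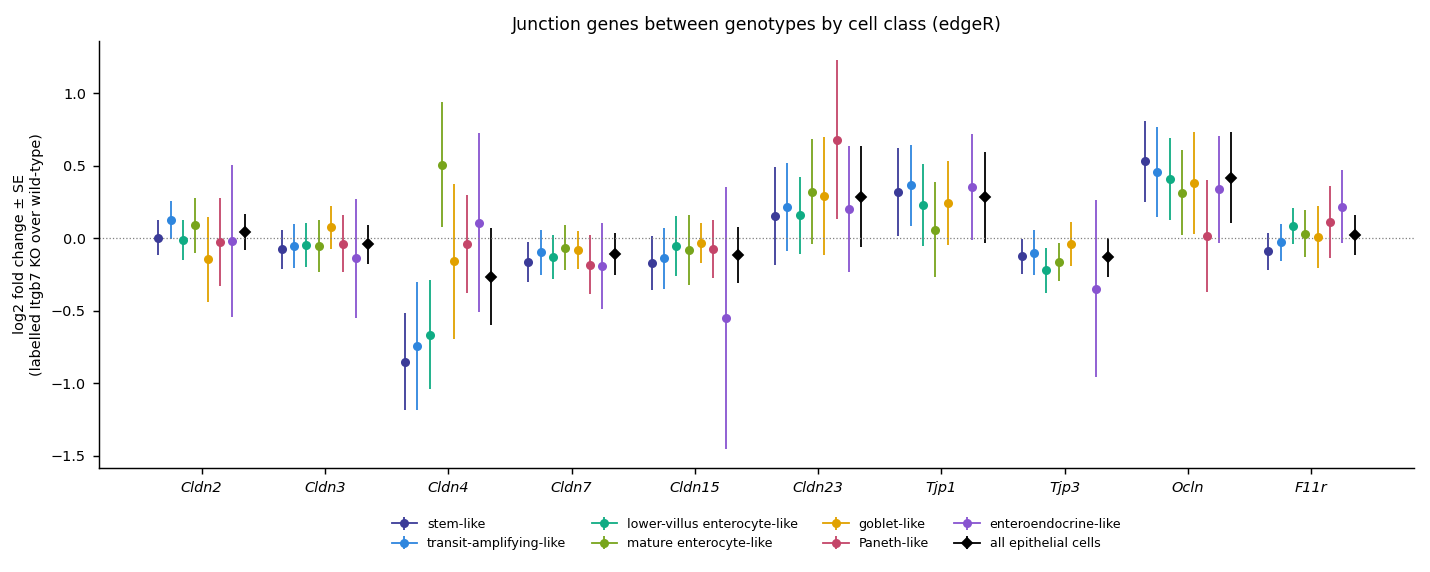
Log2 fold change between genotypes, labelled Itgb7 KO over wild-type (y axis, ± SE, edgeR) for the 10 genes (x axis) in 7 classes and in all epithelial cells (diamonds). None is called; Cldn4 is lowest in stem-like cells, at −0.85, and in each of the 7 classes Ocln and Cldn23 are above 0 and Cldn7 and Cldn15 below it.

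Among the 10 genes, only Cldn4 was called in the test of whether the difference between stem-like and mature enterocyte-like cells depended on genotype. In stem-like cells Cldn4 stood at 12.6, 36.6 and 27.8 CPM in wild-type libraries 1 to 3 and 10.8, 17.9 and 14.7 CPM in those labelled Itgb7 KO. In mature enterocyte-like cells it stood at 7.64, 23.1 and 21.6 CPM in wild-type libraries 1 to 3 and 11.1, 31.7 and 30.8 CPM in those labelled Itgb7 KO. It was lower in mature than in stem-like cells in all 3 wild-type libraries and higher in all 3 labelled Itgb7 KO, though barely in Itgb7 KO 1 (log2 0.04). The test of this difference, a class-by-genotype term with the library as a block, gave a log2 value of 1.33 ± 0.22 (SE) and an edgeR adjusted p of 0.0358. Of all 11056 genes 0.0362% were called, 4 in number. The sums held 41 to 234 Cldn4 UMIs per library and class. Direction held in all 15 alternatives run, from 0.85 to 1.56, but the call was lost in 10 of them, with adjusted p values up to 0.99998 when cells were clustered without correction for library. DESeq2 gave 0.110, leaving out wild-type library 1 or 2 gave 0.0522 or 0.405, and leaving out Itgb7 KO 2 or 3 gave 0.506 or 0.257. Without both libraries numbered 1 it was 0.000898 (log2 1.52).

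Within the stem-like class, wild-type libraries 2 and 3 stood above the others in 1 of its 2 clusters. Cluster 7, led by 6 stem markers among its first 10 genes, had 12.6, 51.9 and 38.0 against 12.02, 17.2 and 15.8 CPM of Cldn4 (wild-type against labelled Itgb7 KO), whereas cluster 11, with 1 such marker, had 12.7, 13.7 and 14.8 against 9.31, 18.8 and 12.8 CPM. Goblet RNA moved with the libraries too. Summed goblet markers in stem-like cells made 5154, 1787 and 3376 CPM in wild-type and 3501, 1903 and 1649.9 CPM in labelled Itgb7 KO libraries, and in mature enterocyte-like cells 6378, 1909.9 and 3490.0 and 3692, 1929.5 and 1449.8 CPM. Per 1000 goblet-marker UMIs there were 2.45, 20.5 and 8.24 and 3.08, 9.42 and 8.89 Cldn4 UMIs in stem-like cells and 1.20, 12.1 and 6.20 and 3.01, 16.4 and 21.2 in mature enterocyte-like cells, against 0.424, 2.36 and 1.93 and 0.885, 1.25 and 1.56 in goblet-like cells. This ratio was higher in stem-like and in mature enterocyte-like cells than in goblet-like cells in each of the 6 libraries, and the part of goblet RNA in the Cldn4 result was not tested.

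The 3 other genes called in this test were Hbegf (log2 1.05 ± 0.15, adjusted p = 0.0271), Atf3 (log2 0.98 ± 0.16, adjusted p = 0.0358) and Fos (log2 0.68 ± 0.11, adjusted p = 0.0358) (SE, edgeR). Hbegf encodes a growth factor of the EGF family, and Atf3 and Fos are immediate-early transcription factors induced by stress, including tissue dissociation. In stem-like cells Atf3 stood at 72.8, 93.9 and 77.5 against 36.6, 46.6 and 36.8 CPM and Hbegf at 57.7, 76.2 and 76.7 against 31.3, 39.6 and 43.6 CPM (wild-type against labelled Itgb7 KO), in both cases without overlap. In mature enterocyte-like cells they stood at 243, 357 and 335 against 199, 389 and 303 CPM and 154, 212 and 230.1 against 135, 278 and 241 CPM, with the groups interleaved. Fos, whose groups overlapped in both classes, stood at 270.4, 523 and 324 against 157, 306 and 433 CPM in stem-like and 390.0, 776 and 589 against 359, 848 and 980.4 CPM in mature enterocyte-like cells. Atf3, Hbegf and Fos were higher in mature enterocyte-like than in stem-like cells in every library. Cldn4 was so only in the libraries labelled Itgb7 KO, and the part of these genes in the Cldn4 result was not tested. Another immediate-early gene, Nr4a1, had a difference of 0.37 ± 0.26 (SE, edgeR adjusted p = 0.980). These genes are named because they were called or resembled Cldn4, after their values were seen.

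**Figure D5:**
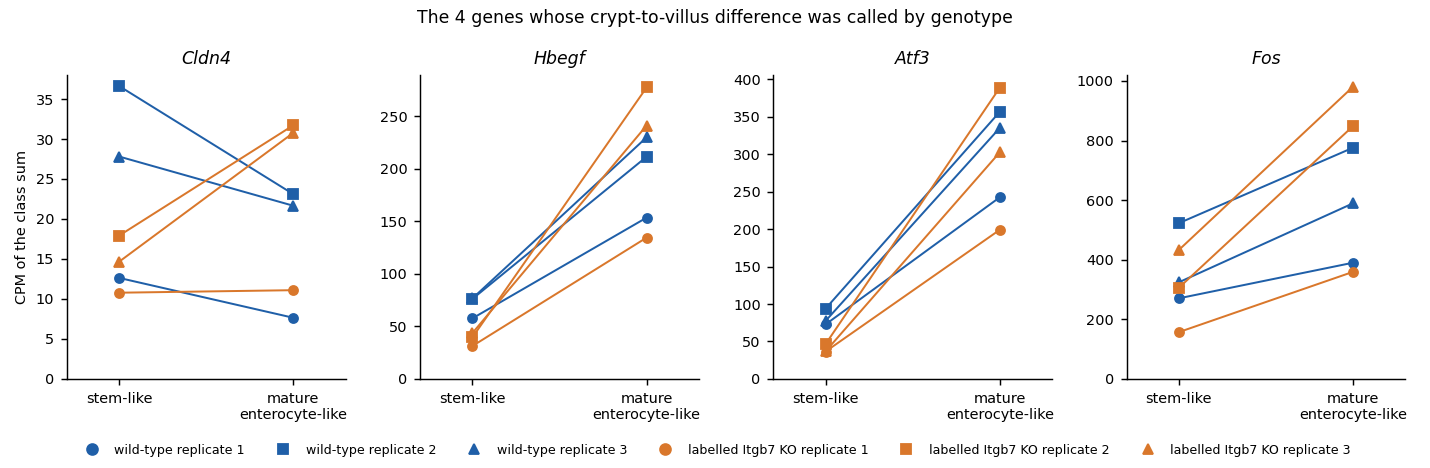
CPM (y axis, from 0) of Cldn4, Hbegf, Atf3 and Fos in stem-like and mature enterocyte-like cells (x axis), 1 line per library, blue for wild-type and orange for labelled Itgb7 KO. The Cldn4 lines run down in the 3 wild-type libraries and up in the other 3, though barely in Itgb7 KO 1. The other genes go up by a larger factor in each library labelled Itgb7 KO than in any wild-type library.

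The wider set of junction genes was described from 3 lists. Of 19 other claudins found, 3 were abundant enough for the axis comparison and none lacked overlap; Cldn10, Cldn17 and Cldn24 had no UMI. Cldnd1, a claudin-domain protein, was higher in mature enterocyte-like cells (0.72 ± 0.15, SD, log2), while Cldn12 (−0.27 ± 0.27) and Cldn8 (−0.27 ± 0.55) differed by about their spread or less. Of 12 other membrane proteins 8 were compared, with 2 higher and 1 lower without overlap, beside 19.3% and 30.8% of all genes. Crb3, an apical polarity protein, had 1.11 ± 0.18 without overlap, the tricellular junction protein Lsr had −0.25 ± 0.07 and the adhesion protein Cxadr 0.82 ± 0.20, both with overlapping ranges. Of 26 plaque and polarity genes 24 were compared, and 11 were higher and 6 lower without overlap, beside the same shares of all genes. Mylk, the myosin light chain kinase that contracts the actin ring of the junction, was 8.64-fold higher in mature enterocyte-like cells, at 163 ± 17.0 against 18.2 ± 4.05 CPM (SD). The polarity kinase Prkcz had 1.02 ± 0.08 and the ZO-1 binding factor Ybx3 −1.18 ± 0.13, both without overlap. The list medians were −0.27, 0.22 and 0.54 on the log2 scale, beside −0.21 for all genes. Between genotypes 0 of these genes were called in any class or in the class-by-genotype test, with 1 membrane protein in stem-like cells, 2 plaque genes in lower-villus cells and 1 in all epithelial cells at an unadjusted p under 0.05, beside 294 of 10365, 434 of 10785 and 426 of 13460 of all genes.

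Genes most like each member over 44 sums of a class in a library (Pearson's r of log2(CPM + 1) among 7299 genes, the sums sharing 6 libraries and their depth) were Mthfd1, Fgfbp1 and Agmat for Cldn2 (r = 0.860, 0.853 and 0.840), and Slc44a4, Mgst2 and Anxa2 for Cldn3 (r = 0.932, 0.931 and 0.914). They were Ghr, Nr4a1 and Rcn1 for Cldn4 (r = 0.921, 0.917 and 0.914), and Prss32, Lypd8 and Cdc42ep5 for Cldn15 (r = 0.949, 0.894 and 0.879). Mthfd1 is a folate enzyme, Ghr the growth hormone receptor and Nr4a1 the immediate-early gene named above. For Cldn23 they were Tob1, Frk and Fam84b (r = 0.913, 0.894 and 0.887), and for Tjp1 Cask, Bach1 and Usp25 (r = 0.907, 0.883 and 0.857). Cldn7, Tjp3, Ocln and F11r each had r of 0.930 to 0.979 with their 3 nearest genes, among them Mrpl43 for Cldn7, Bri3 for Tjp3, Laptm4a for Ocln and Plekhb2 for F11r. These correlations are descriptions and carry no p-value.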

How the data were processed

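Gene expression was measured with 10x 3' version 2 libraries in 6 samples. The authors deposited raw UMI counts for each gene in each barcode, without normalization. The submitters' processing notes name Cell Ranger 2.1.1, bcl2fastq 2.17.1.14 and Seurat, and the mm10 build. The members and lists were chosen with earlier results of these data known.

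Barcodes were kept with at least 500 genes, 1000 UMIs and at most 25% mitochondrial UMIs (3, 0 and 107 failed). Doublets were scored with Scrublet, whose automatic threshold marked under 0.5% in 5 of 6 libraries, so the top 0.8% per 1000 barcodes were removed (972 in all). Cells (25073) were scaled to 10000 UMIs and clustered (2000 variable genes without the junction genes, 30 principal components corrected for library, 15 neighbours, Leiden resolution 1.5, scanpy 1.11.5) into 24 clusters. A cluster was named when markers of 1 class led among its 10 top genes by fold and its top 50 held at least 3 of them. Stem-like cluster 11, with 861 of the 2453 cells of its class, had 1 own marker among the first 10. It was led by DNA replication genes such as Hells, Mcm6 and Uhrf1. At resolution 1.0 a cluster led by such genes stayed unnamed. The stem-like end of the axis differences thus includes these cells. The unnamed clusters were 12, 19 and 22. Tuft-like cells had under 20 cells in some libraries and were not tested.

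Counts were added up over the cells of a class in a library, given as CPM, and tested with edgeR 4.0.16 (TMM, filterByExpr, genotype as the only term; for the class-by-genotype test, library as a block), with Benjamini-Hochberg adjustment at 0.05. Axis differences used a pseudocount of 1 CPM. Fits were tested on simulated data. Alternatives were DESeq2 1.42.0, other scalings, filters, clusterings and blocks, and leaving out each library. Deviations of same-numbered libraries from their group means correlated at 0.849, 0.558 and 0.468 across genes, so the numbers were taken as pairing the libraries, from the data and not from the labels, although wild-type 2 correlated more with Itgb7 KO 3 (0.723) than with Itgb7 KO 2. The genotype differences and p-values per class printed above come from fits without this pairing. With the replicate block Ocln in stem-like cells had 0.51 ± 0.18 (SE) in place of 0.53 ± 0.28. The blocked fit called none of the 10 genes. Named genes were the 10 members, the 3 other junction genes per list with the highest mean CPM, any of them called, the 3 genes most like each member, and Itgb7. No pair of libraries agreed within sampling noise (chi-square per degree of freedom at least 87.2). The genotype groups of 3 against 3 allow no exact permutation p under 0.1.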

Additional observations from a re-analysis of the deposited data

Results flagged for a closer look

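The mean crypt-to-villus difference of Cldn4 had opposite signs in the 2 genotypes, and the test of the difference itself passed. In Itgb7 KO 1 the log2 difference was only 0.04, against 0.79 and 1.02 in Itgb7 KO 2 and 3. The log2 difference of mature enterocyte-like over stem-like cells was −0.55 ± 0.18 (SD, n = 3) for wild-type and 0.62 ± 0.51 (SD, n = 3) for labelled Itgb7 KO libraries, and edgeR gave 1.33 ± 0.22 (SE) for their difference. Of the 10 genes 1 met this rule, and 10 of 15 alternatives did not keep the call.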

How the results depend on the processing

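Over the genotype fits, 0 of the 10 genes were called in any class under each of the alternatives run, including with the replicate block (0 members called), the block on library serial numbers, DESeq2 and cells with at least 8000 UMIs. Signs of uncalled differences were less steady: 136 of 1436 changed, 33 of 88 without Itgb7 KO 3 and 20 of 88 without wild-type 1. Over all genes, calls in all epithelial cells numbered 1 in edgeR, 4 with the replicate block and 28 in DESeq2, and in goblet-like cells 1, 2 and 23. The count of members with a class-by-genotype call was 1, and it was 0 with DESeq2, with library totals only, with cells of at least 8000 UMIs and with clustering without library correction, with junction genes left in or at resolution 1.0. Leaving out each library gave 0 to 1. Along the axis, members higher without overlap numbered 3, and 5 with TMM scaling or without both libraries numbered 1, 2 choices made after seeing the data. Leaving out each library gave 3 to 6, with 6 without Itgb7 KO 3. Along the villus, with tip landmarks alone 5 were higher and 1 lower in place of 2 and 2, and with cells of at least 8000 UMIs 1 was lower. The cause of these changes was not tested. Shares of all genes under these axis and villus alternatives are not given, so their counts cannot be set beside the main shares. The smallest stem-like sums were those of Cldn23, Cldn4 and Tjp1, at 37 to 95, 41 to 234 and 48 to 110 UMIs, which limits their precision.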
